A study of Mus musculus with 4 samples.

Results

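The exosome fraction released by mature 3T3-L1 adipocytes at D16 was examined for its microRNA (miRNA) content. The members were all mouse miRNAs that the array software called detected on the D16 array, 1 of the 4 arrays of the study, and they numbered 380 of 1881 miRNAs on the design (20.2%). The 3T3-L1 line is a mouse fibroblast-like preadipocyte line that fills with lipid when it is given differentiation medium. Dx means x days after cells were moved from growth medium to the first differentiation medium, which held 1-methyl-3-isobutylxanthine, dexamethasone and insulin. They were then kept in medium with insulin alone until D16, 16 days after the move. Every medium held high- or low-glucose DMEM with exosome-depleted fetal bovine serum, penicillin and streptomycin. The line is an established culture and not fat tissue, and vesicles were pelleted from pooled dishes by ultracentrifugation. The RNA on the array was a mixture of independent experiments, 2 by the description of the methods and 3 by the sample labels, so the values came from 1 pooled array with no biological replicate, and no test between samples was possible.

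miRNAs are short RNAs that are cut from hairpin precursors and guide Argonaute proteins to messenger RNAs, mainly through the seed, bases 2 to 8 of the mature strand. Each hairpin can give a 5p and a 3p arm, and usually one of them is kept while the other is degraded. Exosomes are small vesicles of endosomal origin that carry some of the miRNAs of their cell into the medium and, in the body, to other cells.

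The brightest miRNAs at D16 are shown here by their mature sequences from RefSeq (build GRCm38.p6), 5′ to 3′, with the seed in capitals, because they held most of the signal and because they share little with each other. In signal order, and leaving out miR-7042-5p, which was not matched to a sequence, the first of them read as follows.
miR-3963: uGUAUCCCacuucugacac
miR-6366: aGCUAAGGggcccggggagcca
miR-451a: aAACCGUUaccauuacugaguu
miR-6769b-5p: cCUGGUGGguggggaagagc
miR-5100: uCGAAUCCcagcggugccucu
miR-1224-5p: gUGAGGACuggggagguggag
miR-199a-3p: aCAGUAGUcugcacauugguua
miR-21a-5p: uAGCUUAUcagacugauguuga
miR-322-5p: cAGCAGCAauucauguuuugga
let-7a-5p: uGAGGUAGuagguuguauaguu
miR-125b-5p: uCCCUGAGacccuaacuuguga
miR-8110: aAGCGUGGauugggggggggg

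On that build the mature miR-3963 lay at chr3:151023839-151023857 on the minus strand and miR-6366 at chr16:18165093-18165114 on the minus strand, both outside the span of any other annotated gene. The mature miR-451a lay at chr11:78073186-78073207 on the plus strand, next to Mir144. The other 3 of the 6 brightest lay inside protein-coding genes. The miR-6769b-5p sequence was at chr8:71631083-71631102 (minus strand) within Unc13a, miR-5100 at chr11:60728698-60728718 (plus strand) within Mief2, and miR-1224-5p at chr16:20604452-20604472 (plus strand) within Vwa5b2. miR-1224 is known as a mirtron, a miRNA whose hairpin is a spliced intron. Of the 380 detected miRNAs 304 were matched to a RefSeq sequence, and they held 86.3% of the signal.

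The measure was the total gene signal, an intensity in arbitrary units that the scanner software sums over the probes of a miRNA after background subtraction. A miRNA was called detected when at least 1 of its probes had a signal above 3 times the error of that probe, a rule that gave the call in the file for all 1881 miRNAs. Every miRNA had 30 spots, spread over 1 to 4 probes. Because probes differ in affinity and miRNAs differ in labelling, a rank of signals is a rank of brightness and not of copies per vesicle, and the number of vesicles could not be told apart from the amount of a miRNA in each. Errors are those of the software within the array and cover neither culture nor isolation. They had a median of 11.8% of the signal and ranged from 5.03% to 33.3%.

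No spot was saturated, 2.50% of the spots were set aside by the software as outliers, and none of the 7 negative control sequences was called detected. Their 1000 spots had a mean of 2.70 ± 3.72 (SD), and the highest mean of a control sequence was 7.61 per spot, while the detected probes with 15 spots began at a mean of 12.1 and the undetected ones reached 13.9, since the limit depends on the error of each probe. Signals computed from the odd and from the even spots had a Pearson correlation of 0.998 on the log2 scale over the 380 miRNAs and differed by a median of 1.04-fold. For the 1501 miRNAs that were not detected, the median upper limit on the total signal was 5.25.

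The D16 signal was dominated by a few miRNAs. The summed signal was 21873, the median miRNA gave 12.9, and single signals spanned 2969-fold from 1.32 for miR-18a-3p to 3927 for miR-3963. The low end depends on probe calls, since 1 of the 4 probes of miR-18a-3p was detected and the others add nothing. That probe had a mean of 13.4 per spot, against 14876 and 3780 for the probes of miR-3963. miR-3963 alone held 17.95% ± 1.23 of the summed signal (error within the array). The 3 brightest together held 33.1% ± 1.15, the 6 brightest 45.2% ± 0.991 and the 10 brightest 50.2% ± 0.907. Thus 10 miRNAs sufficed for 50% of the signal, 56 for 75% and 133 for 90%. The first of these counts rose to 32 after normexp background correction with an offset of 50, to 21 without miR-3963 and to 43 without the 6 brightest. At the other end, the miRNAs with signals under 10 made up 3.75% of the total.

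**Figure D1:**
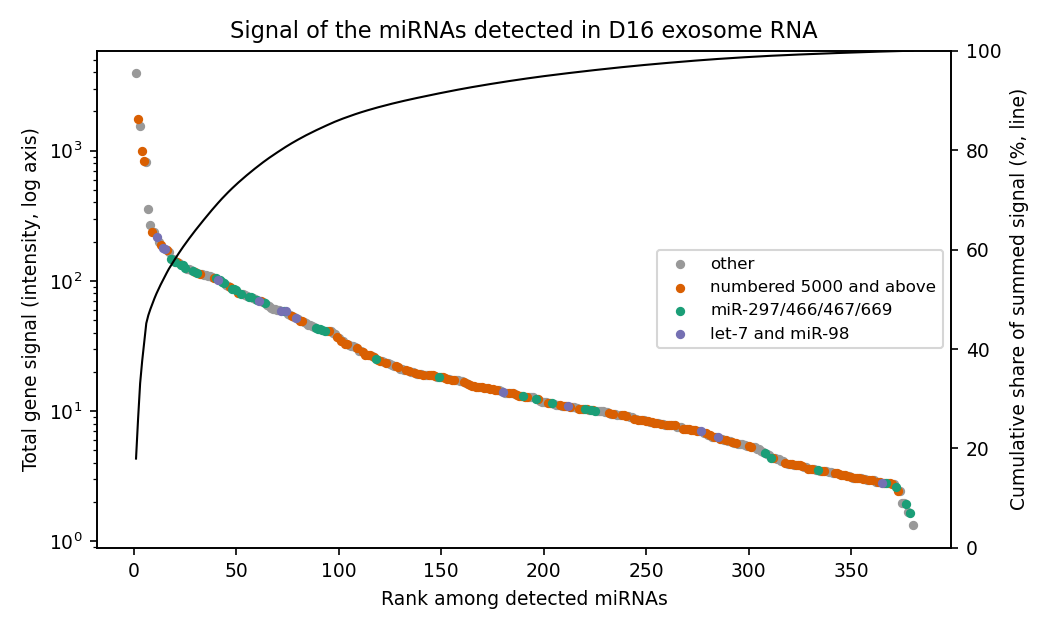
Total gene signal of each of the 380 detected miRNAs at D16 (points, left log axis, intensity) against rank, coloured by name group, with the cumulative share of the summed signal (line, right axis, %). The 6 leftmost points stand 2.31-fold or more above the rest, and the line passes 50% at rank 10.

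The leading miRNA, miR-3963, had a signal of 3927 ± 323. The following pair, miR-6366 at 1752 ± 133 and miR-451a at 1559 ± 119, differed by less than 2 combined errors. miR-451a is a miRNA of red blood cells that is matured by Ago2 without Dicer. Below them, miR-6769b-5p gave 986 ± 70.0, miR-5100 gave 830.1 ± 75.4 and miR-1224-5p gave 824 ± 68.9. These 6 formed a group of their own, since the signal dropped 2.31-fold from the sixth to the next, miR-199a-3p.

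miRNAs that are well known from fibroblasts and many cultured cells came next. miR-199a-3p, from a hairpin expressed in mesenchyme, gave 356 ± 26.8, and miR-21a-5p, which lies within the span of Vmp1 and is abundant in many cell lines, gave 268 ± 23.5. miR-322-5p, the mouse counterpart of human miR-424 and a member of the miR-15/16 seed group, gave 237 ± 17.2, beside 239 ± 19.3 for miR-7042-5p. Among the remaining 10 of the 20 brightest, 3 were let-7 miRNAs, which restrain growth and rise as cells differentiate. let-7a-5p gave 216 ± 17.2, let-7f-5p 177 ± 15.2 and let-7c-5p 175 ± 14.1. miR-125b-5p, a relative of worm lin-4, gave 198 ± 18.7, within its error of let-7a-5p. The list was closed by miR-8110 at 187 ± 13.3, miR-8117 at 174 ± 12.7, miR-877-3p at 166 ± 8.36, miR-466i-5p at 147.99 ± 10.6, miR-494-3p at 147 ± 11.6 and miR-467f at 141 ± 10.0. miR-877 is a mirtron of Abcf1, and miR-494 belongs to the imprinted miRNA region downstream of Meg3.

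The order was firm only at its top. Of 379 pairs of neighbours in the ranking, 4 differed by more than 2 combined errors, all of them among the 20 brightest: ranks 1 and 2, 3 and 4, 6 and 7, and 7 and 8. All other neighbours were not separated by more than that.

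**Figure D2:**
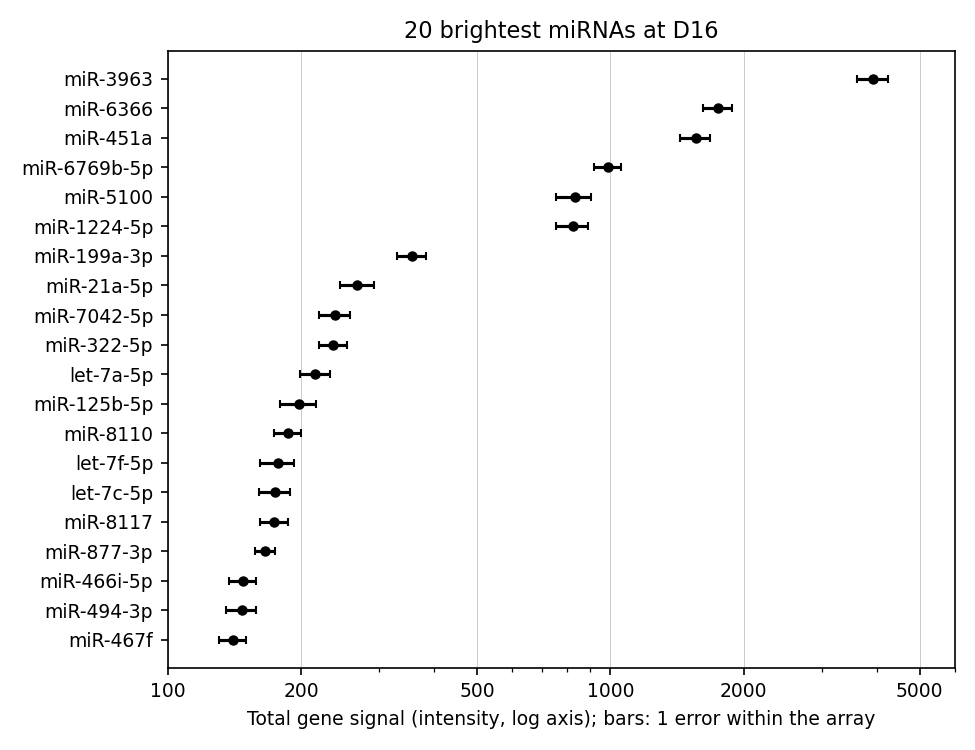
Total gene signal of the 20 brightest miRNAs at D16 (log axis, intensity), with bars of 1 error as given by the software within the array. miR-3963 stands apart at 3927, 5 further miRNAs lie between 824 and 1752, and the other 14 lie between 141 and 356.

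The letters of the brightest miRNAs showed a short shared stretch. miR-3963 and miR-5100 both hold AUCCCA, which also occurs in miR-3968. The stretch was chosen after the signals had been seen, and it is set in capitals in these 3 sequences.
miR-3963: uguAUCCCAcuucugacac
miR-5100: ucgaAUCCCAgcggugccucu
miR-3968: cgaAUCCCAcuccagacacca
AUCCCA was found in 7 of the 1608 matched miRNAs on the array (0.435%, read on the mature strand only). Of the 7, 4 were detected, namely these 3 and miR-6963-3p, beside 304 of all 1608. The 4 held 22.01% of the summed signal, nearly all of it in miR-3963 and miR-5100, since miR-3968 gave 38.7 ± 3.73 and miR-6963-3p gave 18.1 ± 1.78. Letters of the form UCGAAUCC are also a usual part of the T arm of transfer RNAs, and miR-5100 was the only matched miRNA that held that stretch. Whether transfer RNA pieces contributed to these signals was not tested.

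Runs of G were frequent among the brightest too. GGGG occurred in 10.9% of the detected and in 11.4% of the undetected matched miRNAs, close to equal shares, and the detected ones that held it, led by miR-6366, miR-6769b-5p and miR-1224-5p, made up 20.7% of the summed signal. The 6 brightest miRNAs had a median GC content of 64.3%, against 54.5% over the detected and 52.2% over the undetected ones. Over the 304 matched miRNAs, which share an array and a labelling reaction, log2 signal and GC content had a Pearson correlation of −0.05, and log2 signal and length one of −0.12.

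Among the miRNAs matched to a sequence, the let-7 family was the brightest seed group with several members. Of 22 let-7 and miR-98 names on the array 13 were detected (59.1%, against 20.2% over all miRNAs), and they held 4.34% ± 0.152 of the signal, with a median of 58.2. The 9 that carry the seed GAGGUAG are all 5p arms and held 4.18%. They ranged from let-7a-5p at 216 to miR-98-5p at 7.02. Many of them are nearly the same outside the seed too, as these 4 show.
let-7a-5p: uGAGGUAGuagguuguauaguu
let-7f-5p: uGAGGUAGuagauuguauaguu
let-7c-5p: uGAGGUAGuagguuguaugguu
let-7e-5p: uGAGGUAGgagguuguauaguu
let-7a-5p differs from each of the other 3 at 1 position. Its signal was 1.22-fold that of let-7f-5p and 1.23-fold that of let-7c-5p, but 3.705-fold that of let-7e-5p, which gave 58.2. How much near copies hybridised to each other's probes was not tested, here or in the families below.

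The same comparison could be made in other families. Over the 9 detected pairs that share a seed and differ at 1 position, the total signals differed by 1.20-fold to 13.0-fold. The median was 3.40-fold, and 5 pairs were over 2-fold apart. The extremes are shown by their sequences.
miR-103-3p: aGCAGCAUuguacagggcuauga
miR-107-3p: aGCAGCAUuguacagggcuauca
miR-27a-3p: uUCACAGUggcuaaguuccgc
miR-27b-3p: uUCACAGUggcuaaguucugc
miR-103-3p and miR-107-3p, which dampen insulin signalling and lie in introns of pantothenate kinase genes, were nearly equal at 54.9 ± 4.48 and 45.6 ± 3.91. miR-27a-3p gave 48.6 ± 4.04 and miR-27b-3p only 3.73 ± 0.954. However, 1 of the 2 probes of miR-27b-3p had no call and adds nothing to its total. Its detected probe had a mean of 17.6 per spot, against 171 and 57.9 for the 2 probes of miR-27a-3p. Between these extremes of total signal lay miR-29a-3p, at 111 against 13.8 for miR-29c-3p, and miR-99a-5p, at 109 against 16.3 for miR-100-5p.

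Other seed groups with several members followed. The seed AGCAGCA was carried by 6 detected miRNAs, all of them 5p arms of miR-15, miR-16, miR-322, miR-195 and miR-497, and the array held no other 5p name of the pattern used. These 5p arms held 1.86% ± 0.0910 of the signal. miR-322-5p gave most of it, ahead of miR-15b-5p at 63.7, miR-15a-5p at 50.7 and miR-16-5p at 45.4, while miR-497a-5p and miR-195a-5p gave 5.35 and 5.14. This group slows the cell cycle by acting on cyclins. The miR-199 and miR-214 names, 4 of 5 detected, held 2.57% ± 0.137, with 113 ± 9.05 for miR-199b-5p, 52.8 ± 4.39 for miR-214-3p and 41.2 ± 4.02 for miR-199a-5p beside miR-199a-3p. The miR-125 names held 0.985% (3 of 5), the miR-23/24/27 names 1.19% (5 of 11), the miR-29 names 0.679% (3 of 7) and the miR-99/100 names 0.629% (3 of 6). The miR-30 names, which are common in fat tissue, were dim, as 6 of 11 were detected (54.5%) but held 0.217%. The miR-17-92 cluster and its relatives, which drive proliferation, held 0.832% with 11 of 27 detected (40.7%), and miR-17-5p itself was not detected. The counts detected in all groups of this paragraph are to be read against the 20.2% over all miRNAs, which each of them exceeded.

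The miR-297, miR-466, miR-467 and miR-669 families made up many of the upper ranks below the leaders. These rodent miRNAs are rich in repeated letters, and many of them are encoded in an intron of Sfmbt2. Of 61 names 40 were detected (65.6%, against 20.2% over all miRNAs), and together they held 10.7% ± 0.231 of the signal. No member was extreme, for they ran from 1.64 (miR-466f-5p) to 147.99 (miR-466i-5p) with a median of 51.1, while the median over all detected miRNAs was 12.9. They made up 25 of the 100 brightest miRNAs. The repeated letters are visible in 2 of them, with the seed in capitals.
miR-467f: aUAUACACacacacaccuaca
miR-466i-3p: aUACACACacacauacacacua
Most detected miR-297, miR-466, miR-467 and miR-669 names had no matched sequence, so the following counts of letters leave them out. ACACAC occurred in 11 of the 1608 matched miRNAs (0.684%), and 7 of the 11 were detected, beside 304 of all 1608. Among the 7 were miR-574-3p, miR-3100-3p and miR-329-3p of other families. UGUGUG, the complementary repeat, occurred in 2.96% of the detected and 1.23% of the undetected ones. Of the family names, 6 had a single RefSeq gene, and these lay outside Sfmbt2 (miR-467f within Fxr2 and miR-466i within Cdk13, for example). The other members were not placed, so the families are grouped here by name.

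miRNAs numbered 5000 and above, which entered the miRNA catalogue late, held 30.0% ± 0.740 of the signal. Of 782 on the array 146 were detected, or 18.7%, near the 20.2% over all miRNAs. Their median signal was 10.9, below that over all, and 4 of them (miR-6366, miR-6769b-5p, miR-5100 and miR-7042-5p) were among the 10 brightest. Among these names the 3p arms were detected more often than the 5p arms, at 84 of 311 (27.01%) against 34 of 313 (10.9%). For names under 5000 the figures were 113 of 474 (23.8%) and 89 of 462 (19.3%). The detected 3p arms of the late names were rich in C, with a median of 45.5% against 31.8% in the undetected ones, and 45 of 74 (60.8%) ended in AG, as did 108 of 197 undetected ones (54.8%). An AG end is what the 3p arm of a mirtron takes from the splice acceptor of its intron.

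**Figure D3:**
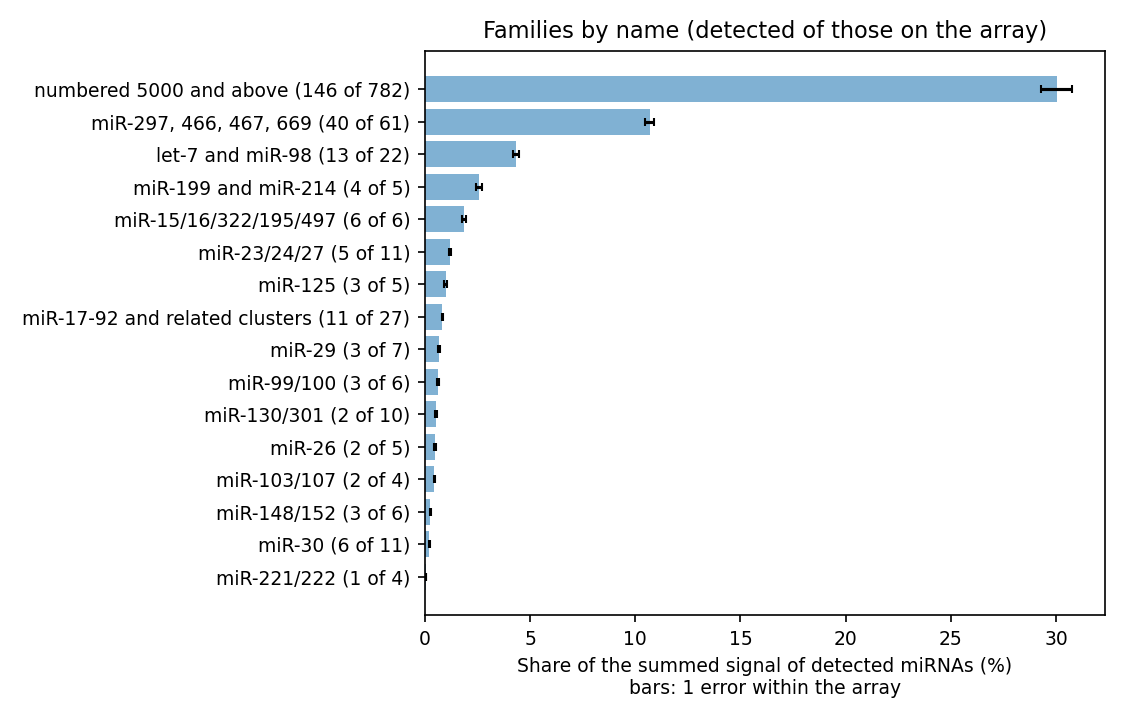
Share of the summed signal of detected miRNAs at D16 (%, linear axis from 0) by name group, with bars of 1 error within the array and, in brackets, the number detected of those on the array. Names numbered 5000 and above hold 30.0%, the miR-297, miR-466, miR-467 and miR-669 names 10.7% and let-7 with miR-98 4.34%, while the other groups lie at 2.57% or less.

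Across all names, the arms were close in summed signal but not in number. The 5p arms gave 123 detected of 775 (15.9%) and 26.7% of the signal, and the 3p arms gave 197 of 785 (25.1%) and 27.3%. The remaining 46.0% came from 60 miRNAs named without an arm, among them miR-3963, miR-6366, miR-451a and miR-5100. Counting names with an arm alone, 5p arms held 49.5% of the signal. Without the 6 brightest miRNAs, which include miR-6769b-5p and miR-1224-5p, they held 40.3%, so the near balance depended on these few.

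For 723 hairpins both arms were on the array. Both were detected for 36, the 5p arm alone for 74, the 3p arm alone for 143 and neither for 470. In the 36 hairpins the 5p arm was brighter in 18 and the 3p arm in 18, and the brighter arm exceeded the other by a median of 3.02-fold. The arms differed by more than 2 combined errors in 28 hairpins. The ratio exceeded 10-fold in 8 and stayed under 2-fold in 12.

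miR-1224 was the most one-sided, with 824 for its 5p arm and 5.82 ± 1.06 for its 3p arm, or 141-fold by total signal. miR-6769b (986 against 18.8, 52.3-fold) and miR-7036a (116 against 8.16, 14.2-fold) also leaned to the 5p arm. On the other side, miR-466f leaned to the 3p arm by 76.7-fold in total signal (126 against 1.64), miR-466h by 50.9-fold (132 against 2.59) and miR-483, which lies in Igf2, by 25.6-fold (120.2 against 4.70). In 7 of the 8 hairpins over 10-fold the dimmer arm had a signal under 10, and in 6 it had probes without a call, which add nothing to its total. By the mean per spot over detected probes alone, 6 hairpins were over 10-fold apart, with 70.7-fold for miR-1224, 52.3-fold for miR-6769b, 16.4-fold for miR-466f and 11.9-fold for miR-466h, and miR-211 was at 2.49-fold.

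The let-7 hairpins kept the 5p arm as the brighter one. The ratio was 9.34-fold for let-7g, 5.002-fold for let-7d and 4.73-fold for let-7b. miR-15a also leaned to the 5p arm, by 5.39-fold, while miR-199a-3p exceeded miR-199a-5p by 8.64-fold. Other genes with the same mature sequence can contribute to miR-199a-3p, so that ratio need not be the one of a single hairpin. It also leaves out miR-199b-5p, which gave 113. In 6 of 7 hairpins of the miR-466 and miR-669 names the 3p arm was brighter, the exception being miR-466i at 147.99 against 133. miR-574, whose arms hold ACACAC and UGUGUG, was close to even at 111 for the 3p and 93.03 for the 5p arm, and miR-7082 was even within its errors (1.08-fold).

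**Figure D4:**
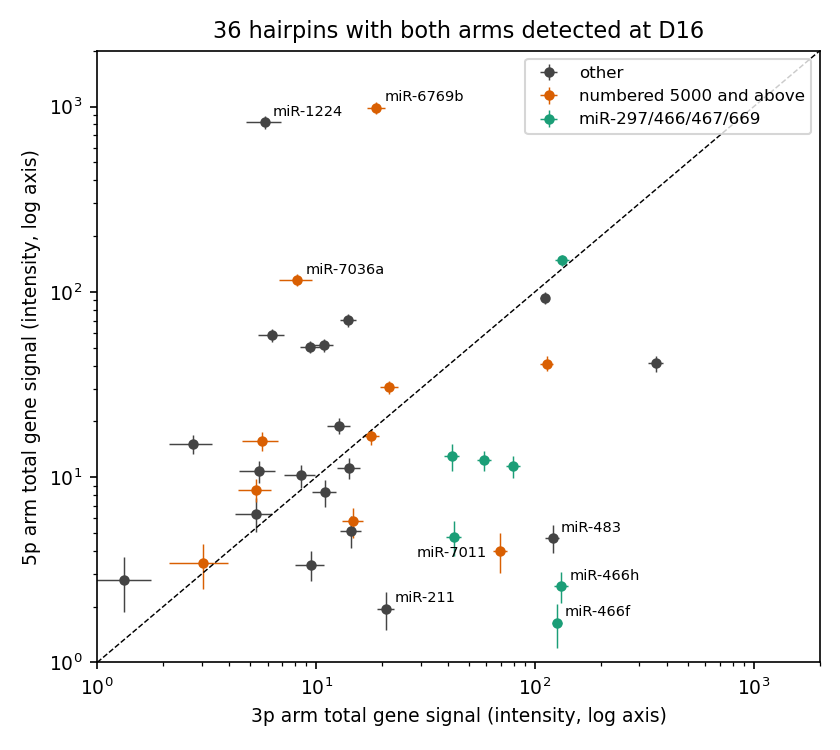
Total gene signal of the 5p arm against that of the 3p arm (intensity, log axes) for the 36 hairpins with both arms detected at D16, with bars of 1 error, coloured by name group, and a dashed line of equal signal. The 8 hairpins named in the plot differ by more than 10-fold in total signal, and 6 of the 7 points of the miR-466 and miR-669 names lie on the 3p side.

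Some of the signal came from neighbouring genes. With a gap of at most 10 kb between neighbouring RefSeq genes, the pair Mir144 and Mir451a held 7.49% of the signal, since miR-144-3p gave 78.4 ± 5.71 beside miR-451a. The let-7 cluster of Mirlet7d, Mirlet7f-1 and Mirlet7a-1 held 2.18%, the pair Mir199a-2 and Mir214 held 2.06%, and Mir99a with Mirlet7c-1 held 1.30%. In the X-linked cluster of Mir322, Mir503, Mir542 and Mir450 all 6 genes had a detected miRNA (1.21%), and miR-322-5p gave 237 of their 264. In the cluster of 36 genes of the Meg3 region that holds Mir379, Mir410 and Mir3072, 4 genes had a detected miRNA, and miR-494-3p gave 147 of their 173. Genes with identical mature sequences elsewhere can contribute to some of these sums, as for let-7f-5p, let-7c-5p and miR-199a-3p.

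The content was read against lists of miRNAs with known cell types or roles. All 10 miRNAs listed for adipocytes were detected, against 20.2% of all miRNAs, and their median signal was 18.3, against 12.9 over all detected miRNAs. They were modest in brightness and held 1.08% ± 0.0418 of the signal. miR-103-3p was brightest among them at 54.9 (rank 76). miR-365-3p and miR-193b-3p, which are encoded side by side and favour brown fat cells, gave 31.8 and 26.6. miR-30a-5p (10.0), miR-378a-3p (8.92, from an intron of Ppargc1b), miR-30c-5p (5.94), miR-143-3p (4.34) and miR-210-3p (3.83) were near or below the median. miR-143-3p, known for promoting fat cell formation, thus ranked 313 of 380. miR-143-3p and miR-210-3p were close to the detection limit. The best probes of miR-378a-3p, miR-143-3p and miR-210-3p were at 4.82, 4.43 and 4.01 times their errors, so a limit of 5 errors would leave these miRNAs out.

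Of 24 miRNAs described as promoting fat cell formation 21 were detected (87.5%, against 20.2% over all miRNAs). They held 5.09% ± 0.170 of the signal, led by miR-21a-5p and miR-322-5p. The 3 that were not detected were miR-17-5p, miR-204-5p and miR-375-3p. The lists overlap, so their counts and shares are not separate results. All 10 miRNAs listed for adipocytes are among these 24, and miR-21a-5p is also on the mesenchyme and fibroblast list. Of 17 described as opposing fat cell formation 8 were detected (47.1%, also above the 20.2%). They held 1.51% ± 0.0690, led by miR-22-3p at 124 ± 10.5 and miR-130a-3p at 106.85 ± 7.77. miR-130a-3p acts on Pparg, the master regulator of fat cells. miR-155-5p, miR-145a-5p, miR-222-3p and miR-31-5p of this list were among those not detected. Of 11 listed for brown and beige fat 6 were detected (54.5%) and held 0.523%, with miR-328-3p at 31.1. miR-196a-5p, miR-203-3p and both arms of miR-455 were not detected.

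Lists for other cell types are also to be read against the 20.2% detected over all miRNAs. Of the mesenchyme and fibroblast miRNAs 11 of 14 were detected (78.6%), with a median of 41.2 and 4.83% ± 0.191 of the signal, but miR-145a-5p, a defining smooth muscle miRNA, was not detected. Of the red blood cell list 3 of 6 were detected and held 7.54% ± 0.519, with miR-451a at 1559, miR-144-3p at 78.4 and miR-486a-5p at 11.1. The leukocyte list had 4 of 8 detected, with miR-223-3p at 47.6 and the rest at 6.36 or less, and held 0.287%. The endothelial miR-126a-3p gave 59.9, and the liver miRNAs miR-122-5p and miR-192-5p gave 4.13 and 3.48, close to the detection limit. These are miRNAs that serum also carries, and the part of the serum in the medium was not tested. None of the 9 striated muscle, 8 epithelial or 11 embryonic stem cell miRNAs was detected, and of 10 listed for nervous tissue miR-212-3p alone was, at 5.58. Each of them was below an upper limit of at most 5.35.

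The probes of a miRNA were compared with each other within the array. Of the 380 miRNAs 277 had more than 1 detected probe, and the brightest probe exceeded the dimmest by a median of 1.35-fold. The ratio was over 2-fold in 63 of them (22.7%). A probe without a call drops out of this ratio, so it was also taken over all 379 miRNAs with several probes, with each such probe at its limit of 3 errors. It was then at least 2-fold in 98 (25.9%) and at least 5-fold in 17. The probes of a miRNA target the same RNA but may differ in affinity, so the ratio measures their spread and need not be 1. Among the brighter 190 miRNAs 184 had more than 1 detected probe, and among the dimmer 190 it was 93. The miRNAs with 1 detected probe, 102 of which had further probes without a call, held 2.43% of the signal.

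The leaders differed in the spread of their probes. The probes of miR-3963 gave means of 14876 ± 675 and 3780 ± 285 per spot (SD, n = 15 spots each), those of miR-6366 gave 5731 ± 228 and 2531 ± 158, and those of miR-451a gave 5139 ± 190.0 and 2213 ± 88.1. Those of miR-6769b-5p were equal within their SD at 2361 ± 236 and 2291 ± 165. miR-5100 had 3536 ± 98.7 and 384 ± 30.4, and miR-1224-5p had 3155 ± 279 and 728 ± 55.1. The brighter probe gave 90.3% of the total signal for miR-5100, 81.2% for miR-1224-5p and 79.7% for miR-3963, so these 3 rested mostly on 1 probe. It gave 69.9% for miR-451a and 69.4% for miR-6366. All of these probe means lay far above the 13.9 per spot that undetected probes reached, so each of the 6 was seen by both of its probes.

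The ratio exceeded 10-fold for 3 miRNAs among those with several detected probes, and for no others with undetected probes at their limit. These were miR-6908-5p (23.9-fold, 407 ± 21.8 against 17.1 ± 4.59), miR-125b-5p (14.8-fold, 873 ± 66.4 against 59.2 ± 7.26) and miR-199a-5p (11.9-fold, 179 ± 12.8 against 15.1 ± 3.87). miR-21a-5p was at 6.30-fold. miR-29b-3p, with 113 ± 9.40 for 1 probe and no call for the other, was at least 9.08-fold apart. At the other end miR-3960 had 319 and 318 (1.00-fold). With undetected probes at their limit, 8 of 13 let-7 and miR-98 names were at least 2-fold apart, beside 5 of 39 of the miR-297, miR-466, miR-467 and miR-669 names and 22 of 146 numbered 5000 and above. These counts are descriptions, since no test between families was made.

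**Figure D5:**
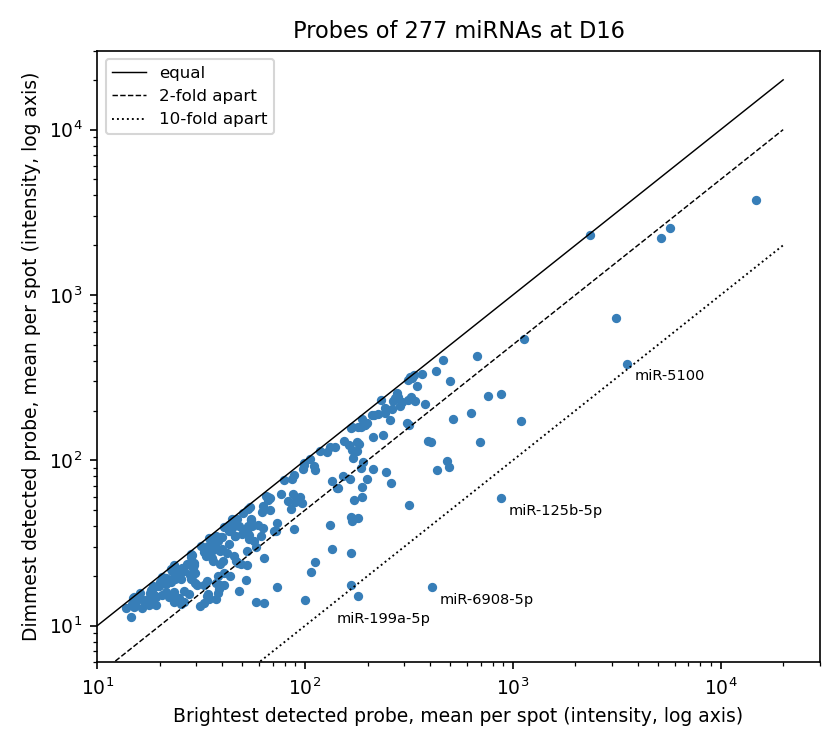
Mean signal per spot of the dimmest against the brightest detected probe (intensity, log axes) for the 277 miRNAs with more than 1 detected probe at D16, with lines of equal signal, 2-fold and 10-fold. The median distance from the line of equality is 1.35-fold, and 3 miRNAs lie beyond the 10-fold line.

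At the edge of detection the values were continuous. The detected miRNAs closest to the limit were miR-5112, miR-6981-3p and miR-18a-5p, with a best probe at 3.00, 3.03 and 3.04 times its error, and the closest undetected ones, miR-6939-5p, miR-6904-3p and miR-7218-5p, lay at 3.00 times as well, just under the limit. The dimmest detected signals were 1.32 for miR-18a-3p, 1.64 for miR-466f-5p and 1.67 for miR-224-5p, with errors of 32.6%, 26.8% and 26.6% of these signals. Each of these miRNAs had 1 of its 4 probes detected, and probes without a call add nothing to the total.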

How the data were processed

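RNA of the D16 exosome fraction was labelled with Cy3 and hybridised to 1 single-colour mouse miRNA array, and the other 3 arrays of the study (D0, D4 and D12) were not used here. The deposited values are scanner intensity values from Feature Extraction 11.0.1.1 (per the submitters' processing notes), in which spots have the background subtracted, outliers are set aside and the total gene signal of a miRNA is the sum over its detected probes. No scaling between arrays was applied, and a common factor cancels in shares. Undetected miRNAs are listed at 0.1.

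Control spots were left out, 1 value per miRNA was kept, and shares, families, arms and probe ratios were computed with Python 3.11.15, numpy 2.4.6 and pandas 2.3.3, and normexp background correction with limma 3.58.1 in R 4.3.3. The error of a share was propagated from the errors of the signals, taken as independent. Limits for undetected miRNAs are 3 times the errors of their probes, summed. Names were matched to RefSeq tables of GRCm38.p6, 1608 of 1881 on the array. The steps were tested on simulated data. With 1 array no comparison between samples was made.

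The text names the 20 brightest miRNAs, up to 4 of each family and leading seed, the extreme and brightest hairpins with both arms detected, the extreme probe ratios, the miRNAs at the limit of detection and list members. Members of chromosomal clusters, miRNAs holding a stretch of letters and miR-98-5p were added after their values were seen. The members and lists were chosen with earlier results of these data known. Alternatives were other detection rules, probe summaries, background corrections, parts of the array and miRNAs left out.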

Additional observations from a re-analysis of the deposited data

How the results depend on the processing

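No paired analysis was possible because each day had 1 array, so the days shared fewer than 2 replicate numbers, and no days were compared. Of the settings tried, normexp without an offset, undetected probes kept at their limit, hairpin folds per spot and leaving out the 6 brightest miRNAs were chosen after seeing the data. The same 6 miRNAs were brightest, led by miR-3963, under each other probe summary, background correction and part of the array. The other detection rules keep the same signals and can only drop miRNAs, so they do not test this order, and they dropped none of the 6. The number of detected miRNAs was 292 when 50% of the spots of a probe had to be well above background and 270 with a limit of 5 errors. The share of the 10 brightest was 51.5% with that limit, 49.0% with the mean per spot, 54.0% with the brightest probe alone, 37.5% after normexp with an offset of 50, which adds a constant to every spot, and 47.6% without the offset. It was 40.5% without the brightest miRNA, 51.9% without names numbered 5000 and above and 18.6% without the 6 brightest. The miRNAs needed for 50% of the signal numbered 32 after normexp with the offset, 21 without the brightest and 43 without the 6 brightest. The let-7 and miR-98 share was 4.62% with the brightest probe, 4.16% after normexp with the offset, 5.29% without the brightest miRNA, 6.20% without names from 5000 on and 7.91% without the 6 brightest. For the miR-297, miR-466, miR-467 and miR-669 names it was 8.57% with the brightest probe, and 13.0%, 15.3% and 19.5% in the same order of miRNAs left out. Names from 5000 on held 28.5% with the brightest probe, 32.4% after normexp with the offset, 36.6% without the brightest miRNA and 25.02% without the 6 brightest. The 5p share was 52.5% with the brightest probe, 44.6% after normexp with the offset, 48.3% without it, 47.4% without names from 5000 on and 40.3% without the 6 brightest. The 5p arm was brighter in 11 hairpins with the limit of 5 errors, under which fewer arms are detected. For the settings not explained by their construction, the cause was not tested. Probe ratios over 2-fold numbered 63 to 67 under the other ways of forming them from detected probes, and 98 with undetected probes at their limit, over which more miRNAs are counted. Many signals under 10 lie close to the limit of detection. Some do not, such as miR-6962-3p at 9.60, whose best probe was at 7.35 times its error. With 1 pooled array the spread between cultures is unknown.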

Other observations

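Short letter groups that have been described as sorting signals for vesicles were counted on the mature strand of the 1608 matched miRNAs. CCCU occurred in 64 of the 304 detected miRNAs (21.1%), among them miR-125b-5p, miR-877-3p and miR-483-3p, and in 9.51% of the undetected ones. Its detected holders gave 9.85% of the matched signal. The detected miRNAs were also richer in C, with a median of 28.6% against 22.7% in the undetected ones. Whether C content accounts for the count of CCCU was not tested. GGAG, in miR-6366 and miR-1224-5p among others, occurred in 13.2% of the detected and 14.6% of the undetected miRNAs and its holders gave 17.6% of the matched signal. GGCU occurred in 11.8% and 13.3%, and its holders, such as miR-24-3p and miR-26a-5p, gave 4.57% of it. The RNA of the cells was not on this array, so these are counts within the vesicle fraction and say nothing of loading.

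Of 284 detected miRNAs with a single RefSeq gene, 203 lay within the span of a protein-coding gene, 24 within that of a long noncoding RNA gene alone and 57 within no other gene.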
